A study of Mus musculus with 4 samples.

Results

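miR-122 was followed through 4 small RNA libraries of mouse exosomes, the small membrane vesicles that cells release. Its members were chosen by name as the 2 mature strands of its hairpin, mmu-miR-122-5p and mmu-miR-122-3p, out of 668 miRNA names in the deposited count tables. The table of serum exosomes lists 611 miRNAs and holds both strands, and the table of exosomes from small intestinal epithelium (SI-Exos) lists 373 miRNAs and holds only the 5p strand. The libraries were 3m-SI-Exos, 18m-SI-Exos, 3m-serum-exos and 18m-serum-exos, that is, both sources at 3 and at 18 months of age. All mice were male C57BL/6J on standard chow, with no transgene, deletion or treatment in any of the 4 groups. Intestinal epithelium was detached with a chelating buffer and blood was drawn from the heart, and the vesicles of both were collected by ultracentrifugation. Each group is 1 library, and the sources used here do not say how many mice went into it or whether gut and serum came from the same animals. No replicate spread and no p-value can therefore be given, and every interval below is an exact 95% interval for counting error only, between libraries and not between ages or tissues.

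miR-122 is the dominant miRNA of hepatocytes, where it acts in lipid and cholesterol metabolism and represses genes that mature liver cells keep low, among them the amino acid transporter gene Slc7a1. The 5p strand is the one loaded into Argonaute, and the 3p strand is the passenger that is mostly degraded. Hepatocytes release miR-122 into blood, where it is a known marker of liver injury. Intestinal epithelium and red blood cells are not known as major sources. In an exosome library, fewer vesicles from a cell type and less of its miRNA per vesicle cannot be told apart.

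To set miR-122 beside other liver miRNAs, a list of 16 names was used (both strands of miR-122 and other miRNAs abundant or active in hepatocytes). RefSeq mature sequences (GRCm38.p6) matched 14 of the 16 names. The 5 shown here are those called higher at 3 months in serum exosomes next to miR-122-5p, with the seed, bases 2 to 8, in capitals. The 5 seeds differ from each other. miR-192-5p shares its seed with 1 other mature sequence in the tables (miR-215-5p), miR-193b-3p with 1 (miR-193a-3p, also on the list) and miR-148a-3p with 3.
miR-192-5p: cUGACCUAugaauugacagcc
miR-148a-3p: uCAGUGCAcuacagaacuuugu
miR-802-5p: uCAGUAACaaagauucauccuu
miR-193b-3p: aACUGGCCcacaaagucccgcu
miR-365-3p: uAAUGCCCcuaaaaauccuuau
miR-192-5p lies at chr19:6264857-6264877 on the plus strand, next to a copy of miR-194 with which it forms a cluster. miR-148a-3p lies at chr6:51269829-51269850 on the minus strand and miR-802-5p at chr16:93369737-93369758 on the plus strand. miR-193b-3p, at chr16:13449570-13449591, is clustered with one of the 2 copies of miR-365-3p, at chr16:13453895-13453916, both on the plus strand. No other of the 663 mature sequences in the tables shares the seed of either strand of miR-122.

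The libraries held 212215, 71353, 832002 and 778237 miRNA reads (3m-SI-Exos, 18m-SI-Exos, 3m-serum-exos, 18m-serum-exos). Levels are given as CPM, reads per 1000000 miRNA reads of a library, so 1 read is worth 4.71, 14.0, 1.20 and 1.28 CPM. The miRNA reads were 1.14% and 0.411% of the authors' library totals in SI-Exos and 5.89% and 5.31% in serum exosomes. The gut label fitted its markers: of 9 epithelial miRNAs (the miR-200 family, miR-192, miR-194, miR-215 and miR-31), 9 had reads in 3m-SI-Exos and 8 in 18m-SI-Exos, with miR-200b-3p at 0 in the latter. They made up 26.8% and 8.49% of the SI-Exos reads and 1.69% and 0.661% of the serum reads.

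miR-122-5p was the most abundant miRNA of 3m-serum-exos, with 319826 reads. It had 20630 reads in 18m-serum-exos, 52 in 3m-SI-Exos and 25 in 18m-SI-Exos. As a level this was 384405 CPM (383360 to 385452) in serum at 3 months and 26509 CPM (26153 to 26868) in serum at 18 months. Both serum libraries thus stood far above both gut libraries, and the young serum library stood far above the old one. In SI-Exos the level was 245 CPM (183 to 321) in the young library and 350 CPM (227 to 517) in the old one, and these intervals overlap. miR-122-5p ranked 1 of 486 miRNAs with a read in 3m-serum-exos and 4 of 496 in 18m-serum-exos. In gut it ranked 110 of 326 in 3m-SI-Exos and 97 of 258 in 18m-SI-Exos, where 2 other miRNAs had the same count. It was nevertheless above the median miRNA with a read in both, which stood at 56.5 CPM in the young and 168 CPM in the old library.

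**Figure D1:**
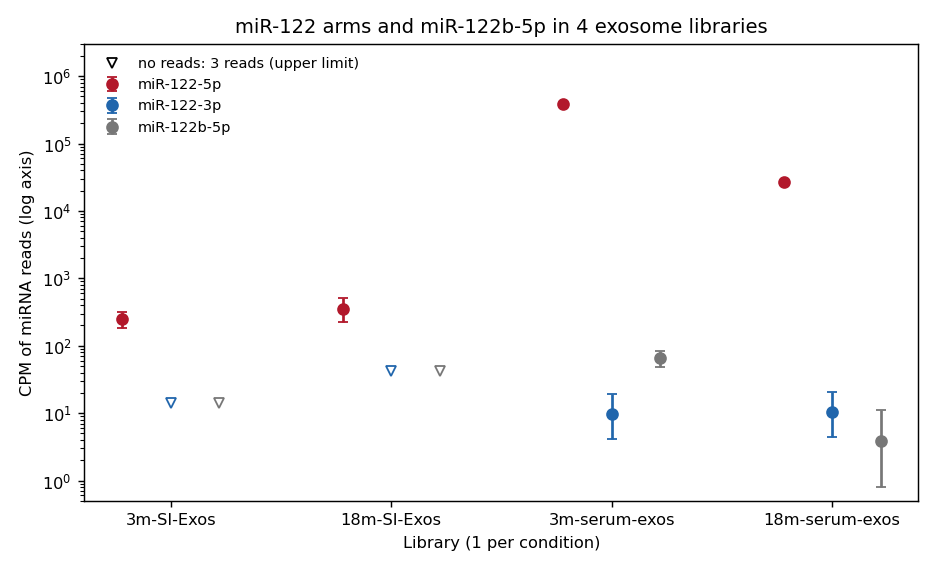
Levels of miR-122-5p, miR-122-3p and miR-122b-5p in the 4 exosome libraries, in CPM of miRNA reads on a log axis. Points are the single library of each condition and bars are exact 95% counting intervals. Open triangles stand at 3 reads, the floor used as a bound for a miRNA with none, which is below the exact upper limit. miR-122-5p falls from 384405 to 26509 CPM between the serum libraries and stands at 245 and 350 CPM in the SI-Exos libraries. Both other species lack reads in SI-Exos.

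Next to miR-122-5p, 3m-serum-exos was led by miR-451a at 215611 CPM (214728 to 216497), a miRNA of red blood cells that matures without Dicer. miR-22-3p, found in many tissues, followed at 56481 CPM. miR-143-3p, abundant in smooth muscle, stood at 41839 CPM and the endothelial miR-126a-3p at 19564 CPM. None of the counting intervals of these leading miRNAs overlap. In 18m-serum-exos the order was miR-451a at 525476 CPM, miR-16-5p at 45045 CPM, let-7g-5p at 38247 CPM, then miR-122-5p, with miR-126a-3p just below it at 25044 CPM (24698 to 25393). In 3m-SI-Exos its neighbours were miR-141-5p with 53 reads, from an epithelial hairpin of the miR-200 family, and a predicted miRNA with 51. In 18m-SI-Exos they were a predicted miRNA with 26 reads and miR-200a-5p with 25. Neither SI-Exos pair differs from miR-122-5p beyond counting error.

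The first comparison asks how exosomal miR-122 differed between young and old mice. In serum exosomes miR-122-5p was 14.5-fold higher at 3 months than at 18 months (14.3 to 14.7). A miRNA counted as measured from 10 reads in either library upward, and it was called where it differed by at least 2-fold, or had no read on one side, and its interval left out 1. By this rule miR-122-5p was higher at 3 months in serum, as were 18.3% of the 251 miRNAs measured there, while 25.9% were lower. The median log2 ratio over all 251 was -0.38. In SI-Exos the ratio of miR-122-5p was 0.699 (0.426 to 1.18) and it was not called. There 32.7% of 214 measured miRNAs were called higher and 29.4% lower at 3 months, with a median log2 ratio of 0.45. The interval for SI-Exos holds any ratio from 0.426 to 1.18, so it shows neither a change nor its absence within that range.

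The direction in SI-Exos depends on the scale. On the authors' RPM, reads per 1000000 of a library total larger than the miRNA reads, miR-122-5p had 2.80 in 3m-SI-Exos and 1.44 in 18m-SI-Exos, a ratio of 1.94 (1.18 to 3.27), which stays under 2-fold. With DESeq2 size factors both levels were equal, but only because the factors, 1.44 and 0.693, stand in the same ratio as its own 52 and 25 reads. That equality is therefore no separate check. In serum both DESeq2 factors were 1, so the ratio there, 15.5, is that of the raw reads. In serum exosomes the RPM were 22635 and 1408, and the ratio lay between 14.5 and 22.9 on every scale computed. The age ratio in serum was 20.7 times that in SI-Exos (12.3 to 34.0) on CPM and 8.28 times (4.92 to 13.6) on RPM.

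**Figure D2:**
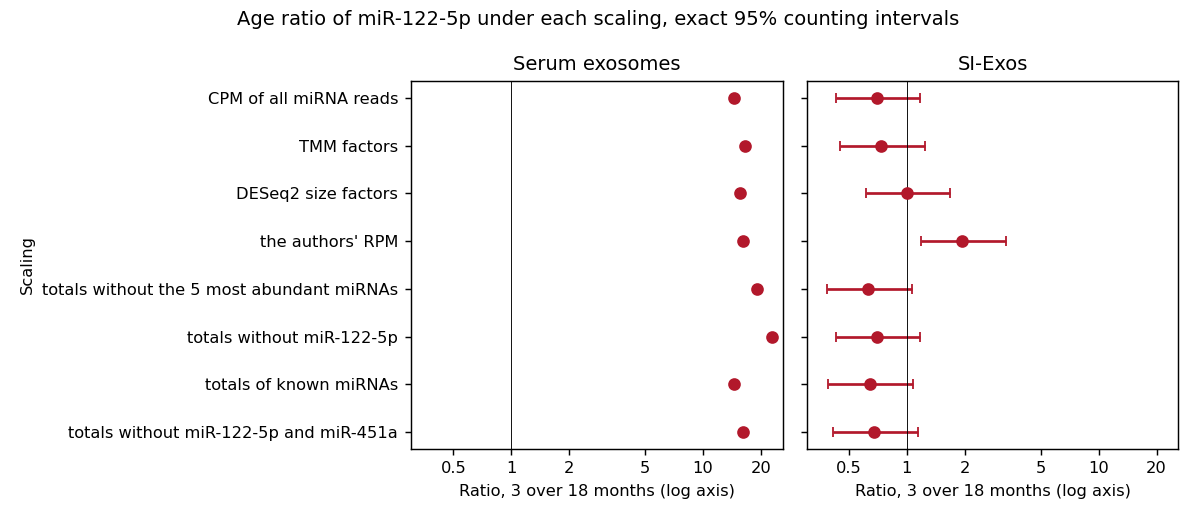
Ratio of miR-122-5p at 3 months to 18 months in serum exosomes (left) and SI-Exos (right) under 8 scalings, on a log axis with exact 95% counting intervals. All serum values lie between 14.5 and 22.9, and the SI-Exos values lie on either side of 1, up to 1.94 on the authors' RPM.

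The make-up of the serum libraries was dominated by 2 miRNAs at both ages, in opposite order. miR-122-5p made up 38.4% of the reads of 3m-serum-exos and miR-451a 21.6%. In 18m-serum-exos miR-122-5p made up 2.65% and miR-451a 52.5%. Together they held 60.0% and 55.2%, so the reads left for all other miRNAs were a similar share, 40.0% and 44.8%. In SI-Exos the share of miR-122-5p was 0.0245% and 0.0350%, and that of miR-451a 0.628% and 3.71%.

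**Figure D3:**
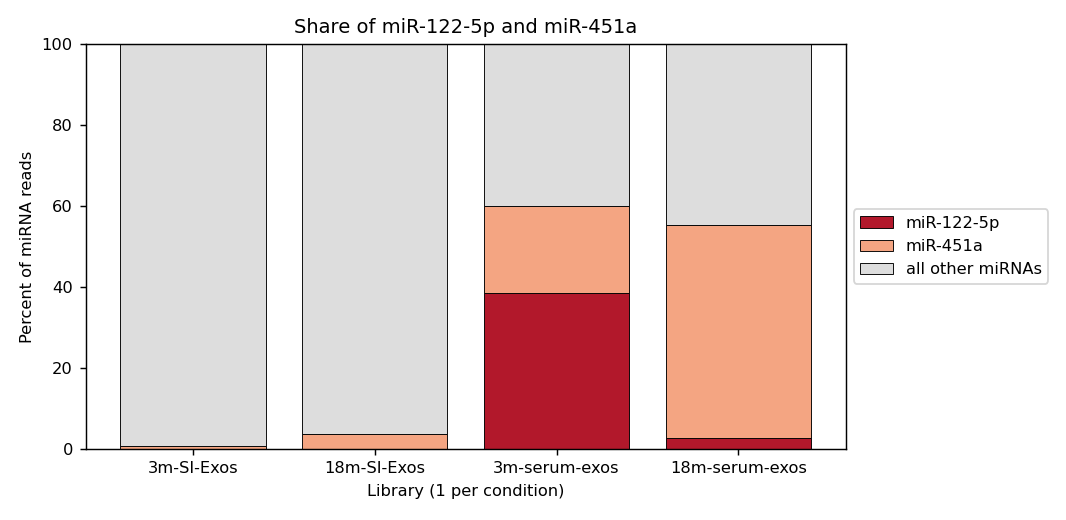
Percent of all miRNA reads taken by miR-122-5p, miR-451a and all other miRNAs in each of the 4 libraries, as stacked bars. miR-122-5p takes 38.4% of the young and 2.65% of the old serum library, and miR-451a takes 21.6% and 52.5%.

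A miRNA of this size shapes the ratios of the others, since CPM sum to a fixed total. With all reads as the total, 45 of the 250 other measured serum miRNAs were higher and 65 lower at 3 months, against the 18.3% and 25.9% given above for all 251. With miR-122-5p taken out of the totals, every ratio shifted 1.58-fold (0.66 on the log2 scale), and 84 were higher and 23 lower. Of the lower calls 42 were lost, and 39 higher calls were gained. The median log2 ratio moved from -0.38 to 0.28. With miR-451a taken out as well, the shift was 1.12-fold, and 50 were higher and 52 lower. The balance of higher and lower calls in serum thus depends on whether miR-122-5p is counted in the total.

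The rise of miR-122-5p itself does not depend on a total when it is set against single miRNAs. Among 36 known miRNAs with at least 1000 reads in each serum library, miR-122-5p was higher at 3 months relative to all 36. This restates that its age ratio was above each of theirs and is no separate check. The smallest ratio was 3.78, against miR-192-5p, followed by 4.00 against miR-22-3p. The median was 20.7 and the highest 79.2, against let-7g-5p. Per 1000 reads of miR-451a there were 1783 reads of miR-122-5p in 3m-serum-exos and 50.4 in 18m-serum-exos, a 35.3-fold difference (34.8 to 35.9). Per 1000 reads of everything but these 2 miRNAs there were 961 and 59.2. In SI-Exos miR-122-5p per 1000 miR-451a reads was 39.0 and 9.46, a ratio of 4.13 (2.50 to 6.97), opposite in direction to its CPM.

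Red blood cell miRNAs moved in serum in the other direction, and their part in the age difference was not tested. The 6 on the list (miR-451a, both strands of miR-144, miR-486a-5p, miR-486b-5p and miR-16-5p) all had reads in both serum libraries and made up 23.9% of 3m-serum-exos and 58.5% of 18m-serum-exos. The 18-month library held 2.44-fold more miR-451a (2.42 to 2.45). The number of miR-451a reads per read of miR-23a-3p, a miRNA that red cells hold little of and that is used as the reference in haemolysis checks, was 17.7 and 63.2 in serum. The serum age ratio of miR-122-5p, 14.5 with all reads as the total, was 22.9 (22.6 to 23.3) with miR-122-5p out of the totals and 16.2 (16.0 to 16.5) with miR-451a out as well. In SI-Exos the 6 made up 0.975% and 4.08%, with 5 and 6 of them detected. Myeloid miRNAs (miR-223-3p and both strands of miR-142a) summed to 666 and 3012 CPM in serum and 37.7 and 322 CPM in SI-Exos. Most of the serum sum was miR-223-3p, with 569 and 2898 CPM, which was called lower at 3 months in serum and, on 4 and 19 reads, in SI-Exos, while neither strand of miR-142a was called in either source. Striated muscle miRNAs (miR-1a-3p, miR-133a-3p and miR-206-3p) summed to 6969 and 7273 CPM in serum and 4802 and 1514 CPM in SI-Exos.

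Among 116 known miRNAs with at least 100 reads in 1 serum library, miR-122-5p had the third highest age ratio. Above it stood let-7c-2-3p, with 169 reads at 3 months and 1 at 18 months, a ratio of 158 (28.0 to 6280), and miR-199a-3p, with 203 and 7, a ratio of 27.1 (12.9 to 68.3). Both share their whole mature sequence with another name in the table. let-7a-1-3p, the twin of let-7c-2-3p, had 0 and 51 reads, and miR-199b-3p, the twin of miR-199a-3p, had 1 and 301. Added up per sequence, the ratios were 3.04 (2.22 to 4.23) and 0.620 (0.517 to 0.742), and miR-122-5p stood first of 115. Next below it were miR-379-5p, of the imprinted Dlk1-Dio3 cluster, at 8.33 (6.04 to 11.7), miR-6538 at 8.06 (4.53 to 15.6) and miR-490-5p at 5.82 (4.60 to 7.45). Of these 3 intervals only that of miR-6538 reaches the ratio of miR-122-5p. All 3 had at most 504 reads in a library. Predicted miRNAs were left out of this order, and 1 of them, with 541 and 27 reads, had a ratio of 18.7 (12.7 to 28.7), an interval that holds the 14.5 of miR-122-5p.

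In SI-Exos miR-122-5p was 123 of 181 known miRNAs in the order of age ratios. With names of 1 mature sequence added up it had the same place. There 34 of the 181 had no read in the shallower 18-month library and stood at the top, which lowers its place. Its neighbours were miR-6538 at 0.797, miR-21a-5p at 0.731 and miR-15b-5p at 0.709 above, and miR-22-3p at 0.692, let-7e-5p at 0.688 and miR-149-5p at 0.672 below. All 6 lie within the counting interval of miR-122-5p.

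**Figure D4:**
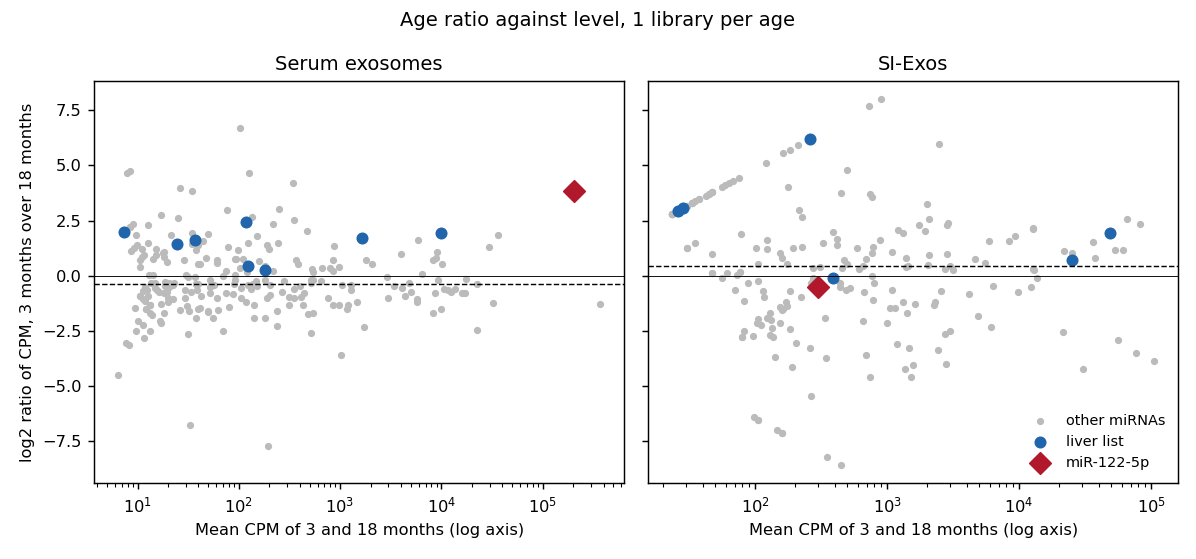
Log2 ratio of CPM at 3 months over 18 months (0.5 reads added) against the mean CPM of both ages on a log axis, for the 251 miRNAs measured in serum exosomes (left) and the 214 in SI-Exos (right). Dashed lines mark the medians, -0.38 and 0.45, blue points the liver list and the red diamond miR-122-5p, which in serum lies at the far right with a log2 ratio of 3.86 and in SI-Exos at -0.53 among miRNAs of middle level.

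The second comparison sets serum exosomes against SI-Exos of the same age. At 3 months miR-122-5p was 1569-fold higher in serum exosomes (1196 to 2101), where 32.4% of 241 measured known miRNAs were higher and 37.8% lower. At 18 months it was 75.7-fold higher (51.2 to 117), where 33.8% of 231 were higher and 26.8% lower. On the authors' RPM the ratios were 8100 and 978, and at 18 months 189 miRNAs were higher and 26 lower in serum, in place of 78 and 62. On CPM the source difference was larger at 3 months, by the same 20.7-fold that separates the age ratios, since the same 4 counts enter both. Relative to miR-451a, which was itself more abundant in serum, miR-122-5p was 45.7-fold higher in serum at 3 months (34.6 to 61.5) and 5.34-fold higher at 18 months (3.60 to 8.26).

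The hairpin of miR-122 is annotated at chromosome 18, 65248861 to 65248926, on the plus strand of GRCm38, as the gene Mir122. It lies within an exon (65245359 to 65252621) of a long noncoding RNA gene, AC157910.3, on the same strand. RefSeq places a further hairpin, Mir122b, at 65248863 to 65248921, within the limits of Mir122. The mature miR-122b-5p matches the reverse complement of miR-122-3p at 21 of 21 aligned bases, and miR-122-5p itself at 18 of 22.

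The passenger strand was rare. mmu-miR-122-3p had 8 reads in 3m-serum-exos and 8 in 18m-serum-exos, 9.62 CPM (4.15 to 18.9) and 10.3 CPM (4.44 to 20.3). Its age ratio was 0.935 (0.306 to 2.86), and with under 10 reads in each library it was not measured by the rule above. The 2 strands of 1 hairpin thus differed in their ratios, 14.5 against 0.935, and their intervals do not overlap. The SI-Exos table has no entry for the 3p strand. Taken as 0 reads, this allows up to 17.4 CPM in 3m-SI-Exos and 51.7 CPM in 18m-SI-Exos by the exact upper limit. The floor of 3 reads stands at 14.1 and 42.0 CPM. These values are above the level in serum, so a like level in gut is not excluded at this depth.

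There were 39978 reads of the 5p strand for each of the 3p strand in 3m-serum-exos and 2579 in 18m-serum-exos. The 3p strand, in reads per 1000000 of both strands, held 25.0 (10.8 to 49.3) and 388 (167 to 764), a 15.5-fold difference (5.07 to 47.4). Of the 50 other hairpins with both strands listed and at least 100 reads in each serum library, 32 had a read of the minor strand at both ages, and 12 had none at 3 months, where their share could not be placed. Over the 32 the change in the minor strand from 3 to 18 months, with 0.5 reads added, had a median of 0.937 and a highest value of 4.34, for miR-7a, beside 15.5 for miR-122. In the opposite direction the let-7c hairpin changed more, to 0.00561, through the let-7c-2-3p name whose sequence is shared. These shares rest on 8 reads in each library.

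miR-122b-5p was outside the members and was looked at after its values were seen, because it comes from the same place. It had 54 reads in 3m-serum-exos and 3 in 18m-serum-exos, 64.9 and 3.85 CPM, and no entry in the SI-Exos table. Its age ratio was 16.8 (5.46 to 84.2), an interval that holds the 14.5 of miR-122-5p. It had, per 1000000 reads of miR-122-5p, 169 reads (127 to 220) at 3 months and 145 (30.0 to 425) at 18 months. The ratio of these was 1.16 (0.377 to 5.81), an interval that holds 1. With 3 reads at 18 months, whether miR-122b-5p followed miR-122-5p could not be resolved. Whether the reads of miR-122b-5p were assigned to the right strand was not tested, and how the counting used strand was not given in the sources used here.

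Other liver miRNAs give the setting for miR-122. Their list was chosen with earlier results of these data known, so the counts below are a description and no independent support. In serum exosomes 9 of the 16 were measured, and 6 of these 9 were called higher at 3 months and 0 lower, beside 18.3% and 25.9% over all. Without miR-122-5p it was 5 of 8, all 8 had a ratio above 1, and the median log2 ratio was 1.67, beside -0.38 over all 251. The read filter shaped this: miR-193a-3p, with 10 and 2 reads, was measured only through its 3-month library. Left out under 10 reads were miR-122-3p and miR-192-3p (0.935 each) and miR-455-5p (0.624). So were miR-101a-3p (1.25) and miR-802-3p (4.68), and miR-148a-5p with 1 and 0 reads. With miR-122-5p out of the totals each of these ratios would be a further 1.58-fold higher.

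miR-192-5p, abundant in liver, kidney and gut, had 13184 reads in 3m-serum-exos and 3216 in 18m-serum-exos, a ratio of 3.83 (3.69 to 3.99). miR-148a-3p, a hepatocyte miRNA that acts in lipid metabolism, had 2124 and 599, a ratio of 3.32 (3.03 to 3.64). miR-365-3p had 165 and 28, a ratio of 5.51 (3.68 to 8.55). These 3 were clearly lower in the old library, yet none of their intervals reaches the ratio of miR-122-5p. miR-193b-3p, which is clustered with miR-365 and known for a role in brown fat, had 30 and 10 reads, a ratio of 2.81 (1.34 to 6.43). miR-802-5p, expressed in liver and gut, had 47 and 14, a ratio of 3.14 (1.70 to 6.18). Both rest on few reads, and their intervals are wide. Not called were miR-194-5p, the cluster partner of miR-192, with 119 and 82 reads and a ratio of 1.36 (1.02 to 1.82), and miR-101b-3p, known to target Ezh2, with 166 and 130 and a ratio of 1.19 (0.944 to 1.51). miR-193a-3p had 10 and 2 reads, a ratio of 4.68 with an interval (0.997 to 43.9) that holds 1.

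miR-192, miR-194 and miR-802 are also expressed in intestinal epithelium, and the first pair is on the epithelial list. Of the 3 members from these hairpins 2 were called higher in serum at 3 months, and of the 5 others 3 were, with ratios from 1.19 to 5.51. For each read of miR-192-5p there were 24.3 reads of miR-122-5p in 3m-serum-exos and 6.41 in 18m-serum-exos, and for each read of miR-148a-3p 151 and 34.4. Relative to these liver miRNAs too, miR-122-5p was lower in the old serum library.

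**Figure D5:**
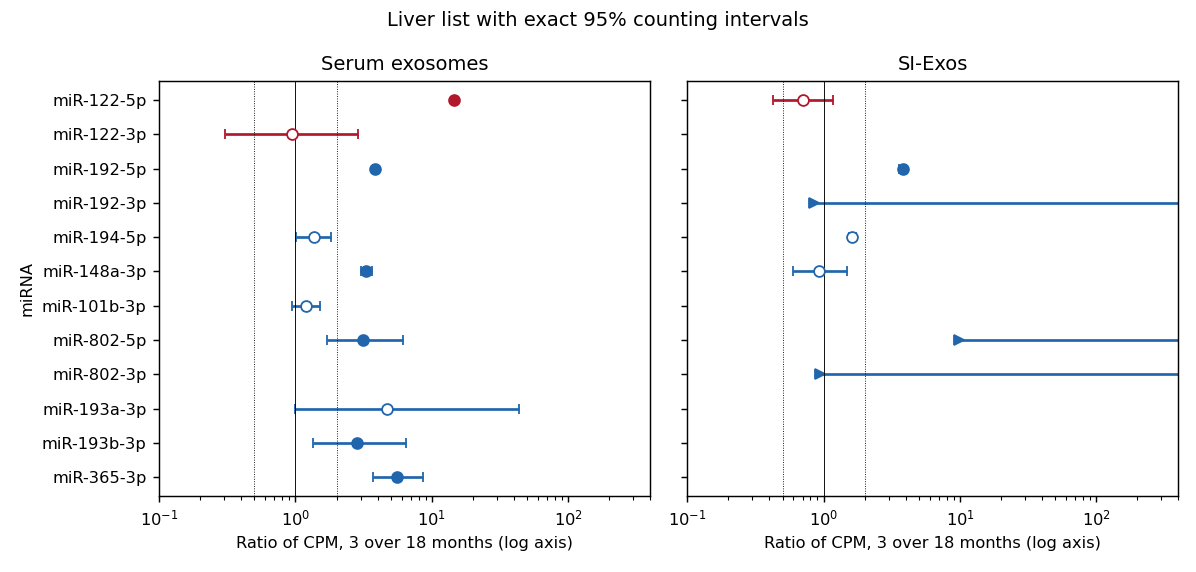
Ratio of CPM at 3 months to 18 months, on a log axis, for both strands of miR-122 and the measured liver miRNAs in serum exosomes (left) and SI-Exos (right), with exact 95% counting intervals. Filled points were called, open points were not, lines with a triangle have no read at 18 months and start at their lower limit, and dotted lines mark 2-fold. In serum miR-122-5p at 14.5 lies above miR-192-5p at 3.83 and miR-148a-3p at 3.32, while in SI-Exos it lies at 0.699.

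In SI-Exos 7 of the 16 were measured, 2 were called higher at 3 months and 0 lower, beside 32.7% and 29.4% over all. On the authors' RPM 6 were higher, beside 131 higher and 31 lower over all in place of 70 and 63, and with DESeq2 size factors 5 were higher. On CPM the called pair was miR-192-5p, with 16378 and 1452 reads and a ratio of 3.79 (3.59 to 4.00), and miR-802-5p. The latter had 110 reads in the young library and 0 in the old one, which is 12.3-fold higher against a floor of 3 reads and at least 9.86-fold higher by the exact lower limit. miR-194-5p had 6568 and 1364 reads, a ratio of 1.62 (1.53 to 1.72). miR-148a-3p, with 80 and 29, had a ratio of 0.928 (0.600 to 1.47), close to that of miR-122-5p. miR-192-3p and miR-802-3p had 11 and 12 reads at 3 months and 0 at 18 months, and their intervals hold 1. The median log2 ratio of the 7 was 1.92 with 0.5 reads added and 0.43 with the members at 0 reads set to the floor, beside 0.45 over all 214.

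Between the sources miR-122-5p was higher in serum exosomes at both ages, and miR-192-5p and miR-194-5p were lower there at both ages. At 3 months 11 members were measured, of which 4 were higher in serum exosomes and 5 lower, beside 32.4% and 37.8% over all. The 4 were miR-122-5p, miR-101b-3p at 21.2-fold (5.77 to 176), miR-148a-3p at 6.77-fold (5.42 to 8.58) and miR-365-3p at 6.01-fold (2.85 to 15.2). The 5 lower ones were strands of miR-192, miR-194 and miR-802, of which miR-192-3p (3 reads in serum, 11 in SI-Exos) and miR-802-3p (5 and 12) rest on few reads. Among them miR-194-5p was 216-fold and miR-192-5p 4.87-fold higher in SI-Exos. At 18 months 8 were measured, of which miR-122-5p and miR-101b-3p (130 reads against 0) were higher in serum and miR-192-5p and miR-194-5p lower, beside 33.8% and 26.8% over all. The gut-expressed miR-802-5p then had 14 reads in serum and 0 in SI-Exos and was not called. Of the measured liver miRNAs with a ratio in both sources, the age ratio in serum over that in SI-Exos was 20.7 for miR-122-5p, 3.58 for miR-148a-3p (2.23 to 5.59), 1.01 for miR-192-5p (0.946 to 1.08) and 0.838 for miR-194-5p (0.624 to 1.13). On CPM the first pair was called in serum and not in SI-Exos, and for the second pair the interval holds 1. This division depends on the scale. On the authors' RPM the value of miR-122-5p was 8.28 in place of 20.7, and the other values shift by the same factor.

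The miRNAs most alike to miR-122-5p over the 4 libraries were sought among 146 known ones with at least 10 reads in 1 library of each source, by the distance between log2 CPM profiles centred on their means. The nearest were miR-451a at 5.55, miR-486a-5p at 5.60, miR-15a-5p at 5.83, miR-25-3p at 5.96 and miR-16-5p at 6.34, where the median of all was 9.12. Distances of over 5 log2 units mean that none was close. All 5 share with miR-122-5p a higher level in serum exosomes than in SI-Exos at each age. None shares its fall with age: their serum ratios of 3 to 18 months were 0.410, 0.309, 0.645, 0.900 and 0.425. With 4 libraries, which share the depth of each column, this order is a description.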

How the data were processed

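The authors sequenced small RNA of 4 exosome libraries and deposited read counts per mature miRNA, made per their processing notes with Bowtie2 2.2.9 on GRCm38. How the counting used strand and reads with several matches was not given in the sources used here. Kit and instrument differ between the labels (MGI, DNBSEQ-G400) and the methods (VAHTS, Illumina). The authors also deposited RPM, whose implied totals give back the counts. Their fold change, p-value and FDR columns were not used.

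Here CPM of miRNA reads and ratios with exact (Clopper-Pearson) 95% intervals of the conditional binomial were computed. Miscounts, PCR copies and animal differences are not covered. A miRNA was called with at least 10 reads in 1 library, at least 2-fold or no read in 1 library, and an interval without 1. A miRNA with no entry in a table was taken as 0 reads, and bounds used 3 reads. Between sources only known miRNAs were used. Precision follows depth: 1 read is 14.0 CPM in 18m-SI-Exos and 1.20 CPM in 3m-serum-exos.

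The members and lists were chosen with earlier results of these data known. Named were both strands, the measured liver list, the 5 nearest profiles, the 3 neighbours on each side in the order of age ratios, the top 5 of each serum library and neighbours in level, and the markers. Alternatives were TMM (edgeR 4.0.16), DESeq2 1.42.0 size factors, the RPM, totals without the 5 most abundant miRNAs, without miR-122-5p or of known miRNAs, at least 1 or 50 reads, 1.5 or 4-fold, no interval rule, only miRNAs listed in both tables, and a Wilson interval for the 3p share. Totals without miR-122-5p and miR-451a, and names of 1 mature sequence added up, were chosen after seeing the data. Python 3.11.15 (pandas 2.3.3, numpy 2.4.6, scipy 1.17.1, matplotlib 3.10.9) and R 4.3.3 were used.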

Additional observations from a re-analysis of the deposited data

Results flagged for a closer look

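The age ratio of miR-122-5p differed between the sources: that in serum exosomes was 20.7 times that in SI-Exos (12.3 to 34.0). For miR-148a-3p the serum ratio was 3.58 times that in SI-Exos (2.23 to 5.59). Both values are on CPM. On the authors' RPM that of miR-122-5p was 8.28 (4.92 to 13.6). A change of scale moves every miRNA by the same factor. From CPM to RPM all age ratios grow 1.11-fold in serum exosomes and 2.78-fold in SI-Exos. The value for miR-148a-3p is therefore smaller on RPM than 3.58, and its interval there was not computed. On RPM 6 of the 7 liver miRNAs measured in SI-Exos were called higher at 3 months, all but miR-122-5p. On that scale miR-148a-3p was thus called in both sources, and its calls no longer differ between them. The intervals cover counting error over 4 single libraries, and whether either difference exceeds the spread between animals was not tested.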

How the results depend on the processing

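No paired analysis was possible because each group has 1 library, and for the same reason no replicate could be left out. Of 197 alternative values 158 stayed within the counting interval or within 1.5 times of the reported count, and 39 did not. Some could not move, such as the 3p shares, where only the interval was changed, so the tally is no measure of stability. None of the called miR-122-5p ratios changed direction. Direction was checked for these ratios only, not for counts of calls, strand shares or the ratio of both ratios. The serum age ratio of miR-122-5p (14.5) was 16.6 with TMM, 15.5 with DESeq2 size factors, 16.1 on RPM, 19.0 without the 5 most abundant miRNAs, 22.9 without miR-122-5p and 16.2 without miR-122-5p and miR-451a. In SI-Exos it was 1.94 on RPM, which turns a direction that was not called. The ratio of both ratios was 8.28 on RPM. The serum to SI-Exos ratio at 3 months (1569) was 2839 with DESeq2, 8100 on RPM, 3037 without the 5 most abundant, 2548 without miR-122-5p and 3897 without both. At 18 months (75.7) it was 124 with TMM, 118 with DESeq2, 978 on RPM and 163 without both.

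Calls higher and lower at 3 months in serum (46 and 65) were 85 and 23 without miR-122-5p in the totals, 28 and 39 with at least 50 reads, and 22 and 19 at 4-fold, and 38 were lower without the 5 most abundant. In SI-Exos (70 and 63) they were 131 and 31 on RPM, and 30 were lower with at least 50 reads. Calls by source at 3 months (78 and 91) were 151 and 43 on RPM, 127 were higher without both miRNAs and 58 lower with at least 50 reads. At 18 months (78 and 62) they were 189 and 26 on RPM, and 36 were lower with at least 50 reads. Liver miRNAs higher at 3 months were 2 in serum at 4-fold (6 reported), and in SI-Exos (2 reported) 5 with DESeq2, 6 on RPM, 1 at 4-fold and 4 with no interval rule. The cause of these moves was not tested beyond the scaling itself. The shallow 18m-SI-Exos library limits every gut value.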
